A study of Mus musculus with 16 samples.

Results

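The signal transducers and activators of transcription (STATs) were followed across the cell types of chimeric mouse embryos in which *Stat3* null and wild-type (WT) cells had developed side by side. The 6 members were chosen by name (*Stat2*, *Stat3*, *Stat4*, *Stat5a*, *Stat5b* and *Stat6*), and all 6 were found among the 29453 genes of the deposited count matrix. Droplet single-cell RNA sequencing counted transcripts by unique molecular identifiers (UMIs), and levels are given as CPM, the gene's UMIs scaled to the same total of UMIs in every library or cell type. There were 2 *Stat3* null and 2 WT libraries of E7.5, the same number of E8.5, and 4 and 4 of E9.5. Null cells came from CD1 embryonic stem cells (ESCs) that lacked *Stat3* and carried a nuclear tdTomato reporter, and WT cells were the CD1 host embryo's own tdTomato-negative cells. Genotype therefore cannot be told apart from donor or host origin, and host cells alone make most of the extra-embryonic tissue. Embryos of E7.5 and of E8.5 were pooled. The study classed those of E7.5 as large or small, so embryo size may differ between E7.5 libraries, and which library held which size is not known. The labels name a separate embryo pool for each library of a genotype, while the methods describe fewer E9.5 embryos than pools, so libraries of E9.5 may share an embryo. The p-values measure only the spread between libraries, which may be technical.

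The analysis used 37841 of 41832 cells in 87 cell types named by the authors, and the libraries held 360 to 4327 cells with 20682659 to 138613245 UMIs. Within a group the libraries carry letters from A to D, which are only names. Of 37351 distinct barcodes, 488 occurred in more than 1 library. The fixed markers were higher in the labelled type than in all other cells of the same group for every type checked, including 5 of 5 for Blood progenitors, 7 of 7 for Erythroid, 6 of 6 for EMP (erythro-myeloid progenitors) and 5 of 5 for ExE (extra-embryonic) ectoderm, and none of these markers was at 0.

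STAT proteins wait in the cytoplasm until a cytokine or growth factor receptor is engaged. Receptor-bound Janus kinases (JAKs) then phosphorylate them, and they pair, enter the nucleus and bind DNA at short palindromic sites. STAT3 acts below receptors that share gp130, such as those for LIF and interleukin 6, and sustains self-renewal in mouse ESCs. STAT5A and STAT5B are close paralogs that act below the receptors for erythropoietin, thrombopoietin and growth hormone. STAT6 answers interleukin 4 and interleukin 13, STAT4 answers interleukin 12, and STAT2 works with IRF9 in the response to type I interferon.

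*Stat5b*, *Stat5a* and *Stat3* are neighbours on mouse chromosome 11 and lie within 158810 bases of each other (GRCm38, GENCODE M21). *Stat5b* (100780731 to 100850724, minus strand) and *Stat5a* (100859351 to 100885169, plus strand) point away from each other with 8626 bases between their starts. *Stat5a* and *Stat3* (100885098 to 100939540, minus strand) point towards each other and their annotated ends overlap by 72 bases. *Stat2* (128270559 to 128292849) and *Stat6* (127642986 to 127660957) lie on chromosome 10, both on the plus strand, and *Stat4* (51987148 to 52107189, plus strand) lies on chromosome 1. The libraries tag the 3′ end of a transcript and keep its strand, so reads over the shared ends of *Stat5a* and *Stat3* can be told apart by strand, whereas reads in stretches that the 2 *Stat5* paralogs share are uncertain. The null allele lacks exons 20 to 22 of *Stat3*, in whose place the study describes a neomycin resistance sequence. In the annotated transcript of 24 exons the lost exons hold 396 exonic bases, and 2064 exonic bases lie downstream. The counted 3′ end is thus outside the deletion but downstream of the inserted sequence, and the transcript level is not a direct check of the allele. Whether the insertion changes the counts of *Stat3* or its neighbours was not tested.

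The 120 bases before a RefSeq start of each of the 3 neighbours are shown because these 3 genes carry the differences described below (GRCm38.p6, written 5′ to 3′ on the gene's own strand). RefSeq gives 2 starts each for *Stat5a* and *Stat5b*, and the pair shown was picked because its upstream bases aligned best. The *Stat5b* start shown lies inside the gene span given above, and the other one lies near its outer end (promoter chr11:100850532-100850831). Capitals mark the bases that are identical between *Stat5a* and *Stat5b* in an alignment of 92 bases, of which 74 (80.4%) are the same, and the *Stat3* stretch was not aligned.
Stat5a, chr11:100860364-100860483, plus strand: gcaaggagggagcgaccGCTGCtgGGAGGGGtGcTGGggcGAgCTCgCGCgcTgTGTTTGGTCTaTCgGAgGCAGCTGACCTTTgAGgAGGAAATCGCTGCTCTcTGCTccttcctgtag
Stat5b, chr11:100822571-100822690, minus strand: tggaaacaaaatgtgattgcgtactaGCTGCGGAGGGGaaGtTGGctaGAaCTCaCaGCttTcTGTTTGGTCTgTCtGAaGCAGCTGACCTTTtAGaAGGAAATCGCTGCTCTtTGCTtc
Stat3, chr11:100939541-100939660, minus strand: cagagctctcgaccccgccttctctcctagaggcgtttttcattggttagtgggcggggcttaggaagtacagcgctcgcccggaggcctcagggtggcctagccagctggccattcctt
The letters of a STAT site, TTCNNNGAA, were searched on both strands of every RefSeq promoter of the members (300 bases, from 250 before to 50 after the start) and were found in none, against 8.30% of 32851 RefSeq promoters. The same ends set 1 base further apart, the spacing known for STAT6, were found once, in the promoter of *Stat2*, against 6.95% of promoters.

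In WT cells, *Stat3* was highest in blood cell types at every stage, and so were *Stat5a* and *Stat5b* at E7.5 and E9.5, whereas *Stat6* was highest in extra-embryonic tissue at E7.5 and in EMP at E9.5. Cell types were assigned by expression, so the order of types is a description with no test. Orders were taken over types for which 2 or more WT libraries each held over 15 cells, namely 11 types at E7.5, 36 at E8.5 and 40 at E9.5.

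*Stat3* stood at 30.8 ± 0.443 CPM in E7.5 Blood progenitors (SD, n = 2), with 30.4 in WT A and 31.1 in WT B. ExE ectoderm followed at 12.1 ± 4.44 and Visceral endoderm, the outer endoderm that feeds the early embryo, at 7.40 ± 1.32. Blood progenitors and ExE ectoderm did not overlap in their libraries, nor did ExE ectoderm and Visceral endoderm, whereas Visceral endoderm, Mesenchyme (6.27 ± 0.489) and Lateral plate mesoderm (5.90 ± 0.572) each overlapped or touched the range of a neighbour. Caudal epiblast (3.39 ± 0.580), Gut tube (2.65 ± 2.30) and Ectoderm (1.71 ± 0.0446) were lowest. At E8.5 EMP led with 36.8 ± 2.08, ahead of Venous endothelium (29.9 ± 5.30), Erythroid (17.7 ± 1.40), Embryo proper endothelium (10.9 ± 2.99) and Allantois (8.06 ± 1.06), and Posterior somitic tissues were last at 0.570 ± 0.806. At E9.5 EMP again led with 35.2 ± 2.97 (n = 4), followed by Megakaryocyte progenitors, the precursors of platelet-forming cells, at 28.3 ± 5.67 (n = 2), Venous endothelium at 19.0 ± 2.14 (n = 3), Erythroid at 18.4 ± 4.52 and YS (yolk sac) mesothelium at 13.4 ± 3.21. EMP overlapped Megakaryocyte progenitors in that order, and Venous endothelium overlapped Erythroid. Epidermis was last at 1.18 ± 1.47.

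*Stat5a* led in blood types at E7.5 and E9.5. In E7.5 Blood progenitors it stood at 17.1 ± 2.76 CPM, with 19.0 in WT A and 15.1 in WT B, and the next type, Visceral endoderm, had 2.38 ± 3.37. EMP led at E8.5 (9.77 ± 0.604), ahead of Venous endothelium (3.99 ± 2.28) and Erythroid (3.74 ± 1.11), and no *Stat5a* UMI was counted in 11 of the 36 types. With every cell thinned to 10000 UMIs, Venous endothelium led (8.25 against 7.94 in EMP). At E9.5 EMP (9.31 ± 4.88), Erythroid (7.81 ± 1.09) and Megakaryocyte progenitors (7.24 ± 0.854) overlapped each other in the order, and Megakaryocyte progenitors did not overlap Venous endothelium (3.76 ± 2.30).

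*Stat5b* was spread more widely than *Stat5a*, its highest type exceeding the median type 2.46 times at E9.5 against 20.4 times for *Stat5a*. It stood at 34.2 ± 1.57 CPM in E7.5 Blood progenitors, with 35.3 in WT A and 33.1 in WT B, and Visceral endoderm was next at 8.24 ± 4.34. At E8.5 Thyroid primordium had the highest mean (24.3 ± 21.8), but its 2 libraries lay at 8.84 and 39.7 and spanned EMP (16.4 ± 5.61), Venous endothelium (16.2 ± 2.80) and Erythroid (13.8, with 12.4 and 15.2). After thinning EMP led (22.5 against 20.8 in Thyroid primordium). At E9.5 EMP (16.2 ± 3.98), Erythroid (16.01 ± 3.57), Megakaryocyte progenitors (14.7 ± 8.30), Venous endothelium (13.6 ± 3.97) and Thyroid primordium (13.0 ± 1.06) led with overlapping libraries, and the median over 40 types was 6.57.

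*Stat6* was highest in extra-embryonic tissue at E7.5. ExE ectoderm, the trophoblast-derived precursor of placental tissue, had 28.1 ± 0.276 CPM at E7.5, Visceral endoderm had 23.5 ± 0.391, and neither overlapped the next type in the order. Blood progenitors were the lowest of the 11 types at 5.51 ± 0.877. At E8.5 Amniotic ectoderm (14.3 ± 3.55), Embryo proper endothelium (11.9 ± 0.994), EMP (10.3 ± 0.130) and YS mesothelium (10.1 ± 0.250) led, with Embryo proper endothelium ahead after thinning cells to the same depth, and Erythroid had 0.924 ± 0.336. At E9.5 EMP had 22.5 ± 9.28, with a lowest library at 16.2 and a highest at 36.2, and did not overlap Megakaryocyte progenitors (12.5 ± 1.06).

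*Stat4* was at 0 in 4 of 11 types at E7.5 and 17 of 40 at E9.5. EMP held 12.4 ± 3.07 CPM at E8.5, where 29 of 36 types had no *Stat4* UMI, and at E9.5 Megakaryocyte progenitors (7.85 ± 1.40), EMP (7.12 ± 1.70), Optic vesicle (3.07 ± 0.959) and Ventral forebrain progenitors (1.98 ± 1.69) led. At E7.5 Ectoderm (2.45 ± 0.138) and Non-neural ectoderm (2.05 ± 0.852) were highest. *Stat2* showed the flattest order: its highest type exceeded the median type 1.23 times at E7.5, 3.53 times at E8.5 and 2.01 times at E9.5, against 6.53, 11.4 and 8.06 times for *Stat3*. Every pair of neighbouring types overlapped for *Stat2* at E7.5 (10 of 10), E8.5 (35 of 35) and E9.5 (39 of 39).

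**Figure D1:**
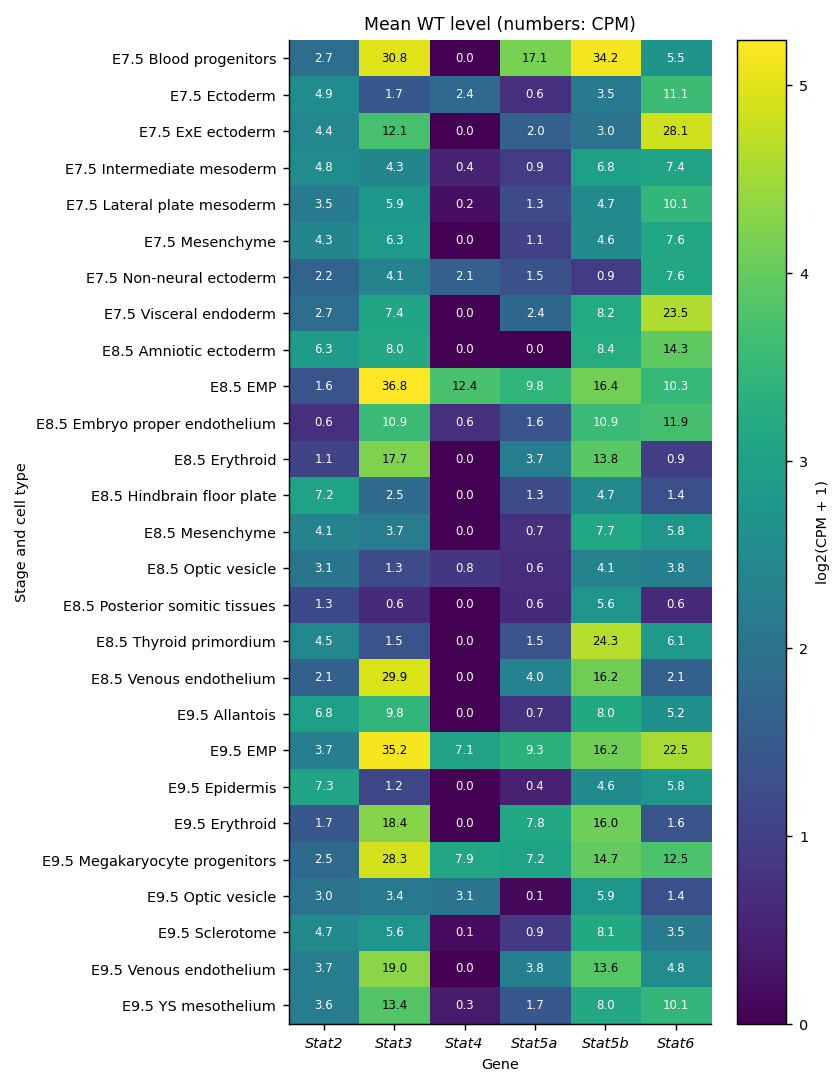
Mean WT level of each member (columns) by stage and cell type (rows), as CPM, printed in the cells and coloured as log2(value + 1). Rows are the 2 leading types of each member and stage and some further types named in the text. *Stat3* reached 30.8 in E7.5 Blood progenitors, 36.8 in E8.5 EMP and 35.2 in E9.5 EMP.

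Blood cell types (Haematoendothelial progenitors, Blood progenitors, Erythroid, Chorioallantoic-derived erythroid progenitors, EMP, MEP and Megakaryocyte progenitors, a list set after the levels were seen) gave a larger part of the *Stat5a* UMIs than of all UMIs. In E9.5 WT libraries they made 5.63% of all UMIs and 45.9% ± 10.1 of *Stat5a* UMIs (SD, n = 4), with 30.6% ± 4.51 for *Stat4*, 21.5% ± 5.34 for *Stat3*, 18.5% ± 2.91 for *Stat6*, 13.5% ± 6.24 for *Stat5b* and 3.83% ± 1.59 for *Stat2*. In E8.5 WT libraries they made 25.4% of all UMIs, 70.2% ± 7.07 of *Stat5a* UMIs and 59.9% ± 1.77 of *Stat3* UMIs. Droplet data count some free RNA, so shares of cells with a UMI were set beside a low type. After thinning each cell to 10000 UMIs, 24.3% of 107 WT Blood progenitors held a *Stat3* UMI (95% exact interval 16.5 to 33.5%, unthinned 59.8%, median depth 40131 UMIs), against 1.80% of 333 WT Ectoderm cells (0.66 to 3.88%, unthinned 5.41%, median depth 31036). For *Stat5a* the shares were 13.1% (7.34 to 20.98%, unthinned 45.8%) and 0.601% (0.0728 to 2.15%, unthinned 1.50%). Intervals cover counting error only.

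Null cells held fewer *Stat3* UMIs than WT cells at every stage. At E7.5 the null libraries had 1.53 (A) and 1.16 CPM (B) over all cells and the WT libraries 9.31 and 6.82. The null libraries of E8.5 had 2.53 and 1.54 against 7.73 and 7.61 in WT. At E9.5 null A to D had 2.05, 2.10, 2.51 and 2.29 and WT A to D had 7.08, 6.14, 6.21 and 6.52. No null library reached a WT library at any stage. Averaged over stages the difference was -5.53 CPM (null minus WT). The two-sided permutation p was 0.000794 over all 2520 arrangements of the genotype labels within stages, the smallest p they can give. In the study each embryo pool gave a null and a WT library, but these pairs could not be matched here. The arrangements ignore the pairs and treat libraries as independent, although those of E9.5 may share an embryo, so this p may be too small.

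A gene was called when the quasi-likelihood test of edgeR gave an adjusted p (Benjamini-Hochberg over all genes tested) under 0.05 and an absolute log2 fold change over 1. The standard setting was edgeR with TMM scaling and a filter on low counts, fitted to 1 stage, and calls under others are named as such. Within a cell type, the fit over all 16 libraries took only those libraries that held over 15 cells of the type. Where tests with an unadjusted edgeR p under 0.05 are counted below, the share of all genes at that threshold is not given. Such counts are a description only, and the shares of called genes beside them follow the stricter rule. In all cells of a library *Stat3* was called lower at E7.5 (log2 fold change -2.48, SE 0.24, adjusted p = 0.00346) and at E9.5 (-1.54, SE 0.10, adjusted p = 7.6e-05). At E8.5 the change of -1.88 (SE 0.25) was not called (adjusted p = 0.195), but it was called by DESeq2, in the fit over all 16 libraries and in that fit without any one E8.5 library (-2.35 to -1.60, edgeR adjusted p from 0.000424 to 0.0116). Among all genes 2.35% were called at E7.5, 0.0278% at E8.5 and 0.573% at E9.5.

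*Stat5a* and *Stat5b* were also lower in every null library than in every WT library of the same stage, without being called in the standard setting. *Stat5a* had 0.520 and 0.145 CPM in the E7.5 null libraries against 2.72 and 1.73 in WT (-2.41, SE 0.49, edgeR adjusted p = 0.0580), 0.592 and 0.453 against 1.39 and 1.56 at E8.5 (-1.47, SE 0.27, adjusted p = 0.433), and 0.620, 0.471, 0.587 and 0.507 against 1.00, 1.03, 0.784 and 1.00 at E9.5 (-0.81, SE 0.17, adjusted p = 0.0595). At E7.5 *Stat5a* was called by DESeq2, with no filter on low counts, in the fit over all 16 libraries and in that fit without any one E7.5 library (-3.84 without null A to -2.05 without null B, edgeR adjusted p from 0.00204 to 0.0142). *Stat5b* averaged 3.598 ± 0.314 against 6.43 ± 0.959 CPM at E7.5, 4.50 ± 0.519 against 7.43 ± 0.238 at E8.5 and 5.63 ± 0.535 against 7.12 ± 0.430 at E9.5. Its log2 fold changes were -0.79, -0.73 and -0.34 (edgeR adjusted p of 0.117, 0.451 and 0.106). Null and WT libraries were separated in this direction for 27.1% of all genes with 10 or more UMIs at E7.5, for 12.4% at E8.5 and for 3.45% at E9.5, so non-overlap was common at E7.5. In sums over mixed tissue alone, fewer cells of a type and less RNA per cell cannot be told apart, so types with over 15 cells in every library were also weighted equally. Blood types made 5.63% of WT UMIs and 1.79% of null UMIs at E9.5. The 20 types shared by all E9.5 libraries held no blood type, so their equal-weight log2 ratios (-0.19 for *Stat5a* and -0.24 for *Stat5b*, with overlapping libraries) describe cells outside blood only. Summed over all cells outside blood, *Stat5a* was lower in null without overlap at E7.5 (0.167 to 0.448 CPM against 0.896 to 1.25) and E8.5 (0.304 to 0.327 against 0.512 to 0.656), as was *Stat5b* (2.61 to 2.62 against 3.64 to 4.72, and 3.96 to 4.23 against 4.63 to 5.72), and both overlapped at E9.5. Equal weights over 7 shared types at E7.5 and 20 at E8.5 gave *Stat5a* ratios of -3.45 and -1.99 and *Stat5b* ratios of -0.88 and -0.68, with all null libraries below WT. Unlike the set of E9.5, the 7 types included Blood progenitors, where both genes were highest in WT at E7.5, and the 20 included Erythroid. These ratios therefore do not describe cells outside blood, and the part of the blood types in them was not tested. The share of all genes separated in this way was not counted outside blood or under equal weights. Non-overlap there is thus no result about these genes. Blood types made 13.4% of null and 9.14% of WT UMIs at E7.5, and 20.7% and 25.4% at E8.5.

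*Stat6* had 7.59 and 7.78 CPM in the E7.5 null libraries and 12.4 and 12.7 in WT (-0.66, SE 0.13, edgeR adjusted p = 0.0541). ExE ectoderm and Visceral endoderm, its 2 highest types, held 281 and 102 WT cells and 2 and 2 null cells. With equal weight over 7 shared types the log2 ratio of *Stat6* was -0.36 and the null libraries lay below WT, but the share of all genes separated so was not counted. Within these 7 types the null libraries lay below WT in 2 and overlapped WT in 5. At E8.5 *Stat6* was 3.79 and 4.10 in null and 3.35 and 3.50 in WT, and at E9.5 the libraries overlapped. *Stat2* and *Stat4* were not called at any stage. At E7.5 *Stat2* was lower in null without overlap (2.56 to 2.96 CPM against 3.72 to 3.78), as were 27.1% of genes, with an equal-weight log2 ratio of -0.51. At E8.5 it was higher in null (2.32 to 2.64 against 2.07 to 2.24), and at E9.5 it overlapped. The share of all genes higher in null without overlap is not given here. The separation of *Stat2* and *Stat6* at E8.5 is thus no result about these genes. No member was called for a difference of the null effect between E8.5 and E9.5 in the interaction test (edgeR adjusted p = 1.00 for all 6, where 0.0197% of genes were called, unadjusted p under 0.05 for 2 of 6, *Stat5b* at 0.0240 and *Stat5a* at 0.0371). In a test between E7.5 and E8.5, chosen after seeing the data, none was called either (0.398% of genes called), and *Stat6* came nearest with a difference of 0.84 on the log2 scale (edgeR adjusted p = 0.100).

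**Figure D2:**
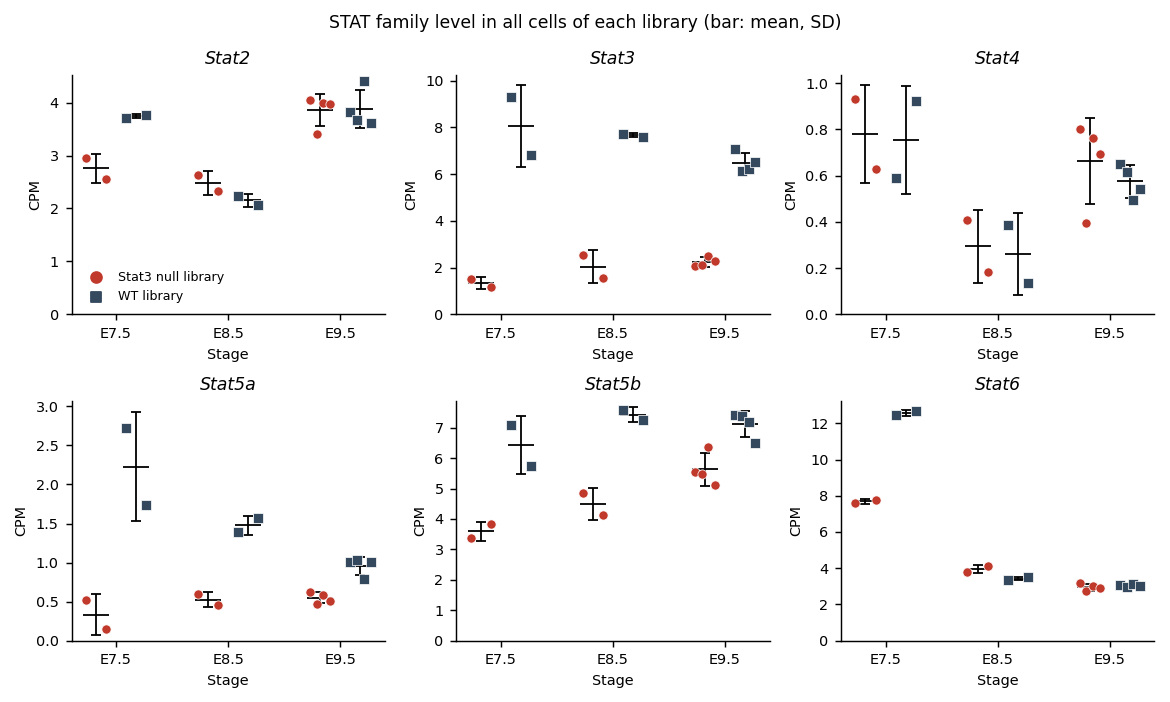
Level of each member (panel) over all cells of a library, in CPM, by stage. Points are libraries (circles null, squares WT) and bars are the mean and SD. *Stat3* null libraries lay between 1.16 and 2.53 and WT libraries between 6.14 and 9.31, without overlap at any stage.

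Within cell types, tests needed 2 or more null and 2 or more WT libraries holding over 15 cells each, which 7 types met at E7.5, 20 at E8.5 and 37 at E9.5. *Stat3* passed the filter on low counts in 3, 4 and 12 of them and its log2 fold change was below 0 in all 19 tests. It was called lower in 2 types at E7.5, where 0.106% of all gene and type tests were called lower, in 0 types at E8.5 (0.0313%) and in 8 types at E9.5 (0.065%). The median log2 fold change of *Stat3* was -2.93 at E7.5, -1.89 at E8.5 and -1.65 at E9.5, beside medians of all genes of 0.00, 0.00 and 0.00. These medians cover only types where *Stat3* passed the filter, which it can pass through the WT libraries alone. Equal weights over all types shared by the libraries of a stage gave smaller log2 ratios of -2.56 (7 types), -1.49 (20 types) and -1.23 (20 types). Over all types fitted, also those where it did not pass the filter, the mean was lower in null cells in 7 of 7, 17 of 20 and 37 of 37 types. Null and WT libraries overlapped in 0, 7 and 18 of these types. The types come from the same libraries, and the share of all genes with a lower null mean was not counted.

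The 2 calls at E7.5 were Blood progenitors (-2.93, SE 0.29, edgeR adjusted p = 1.2e-05) and Mesenchyme (-3.22, SE 0.58, adjusted p = 0.0279), the latter on 5 null and 35 WT UMIs. In this Mesenchyme the summed markers of ExE and visceral endoderm (0.853 to 1.47 CPM in null against 11.02 to 24.96 in WT), of ExE ectoderm (183 to 199 against 231.8 to 249.1), of Myeloid and EMP (11.3 to 14.2 against 16.4 to 18.2) and of Mesenchyme itself (694 to 748 against 820 to 836) were lower in null, and the median null cell held more UMIs (40876 and 55208 against 26556 and 38089 in WT), all without overlap. Their part in the result was not tested. At E9.5 the called type with the highest level was EMP, with 6.16 and 11.7 CPM in null A and D and 36.9, 30.8, 37.0 and 36.0 in WT A to D (-2.09, SE 0.29, edgeR adjusted p = 0.0123). The 7 other called types were not blood, namely Branchial arch neural crest, Cranial mesoderm, Hindbrain floor plate, Limb mesoderm, Optic vesicle, Sclerotome and Ventral hindbrain progenitors, with log2 fold changes from -1.78 to -1.20. In none of the 19 tests was the *Stat3* difference called as unlike that in the rest of the library by the interaction test (lowest edgeR adjusted p = 0.798, where 0.127% of tests over all types were called). Most of these calls depended on which library was left out. Fits of E9.5 types without one library used E9.5 libraries alone while each genotype kept at least 2, and libraries of all stages otherwise. The log2 fold changes of the E9.5 types stayed between -2.06 and -1.06 where a call was lost. Sclerotome stayed called without each of 8 libraries. The call was lost in Cranial mesoderm without WT B, in EMP without null A or WT A, in Ventral hindbrain progenitors without null B, null D or WT A, and in Branchial arch neural crest without null A, B or D or WT A. It was lost in Optic vesicle without null A, B or D or WT A or C, in Hindbrain floor plate without any library except null B, and in Limb mesoderm without any of the 8, with edgeR adjusted p from 0.05003 to 0.176 where lost. Mesenchyme at E7.5 lost its call without any of its 4 libraries (adjusted p from 0.0895 to 0.364) and under DESeq2. DESeq2 called 3 of the 8 types of E9.5.

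No E8.5 type was called for *Stat3* by edgeR in the standard setting, while the unadjusted p was under 0.05 in 3 of 4 tests, and 1 type was called by DESeq2. Erythroid, with 5.77 and 2.19 CPM in null and 16.7 and 18.7 in WT, changed by -1.93 on the log2 scale (SE 0.37, edgeR adjusted p = 0.194), and was called by DESeq2, with library totals, without null-sorted cells lacking a tdTomato UMI, in the fit over all 16 libraries and without any one library, where it ranged from -3.16 (without null A) to -1.56 (without null B).

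**Figure D3:**
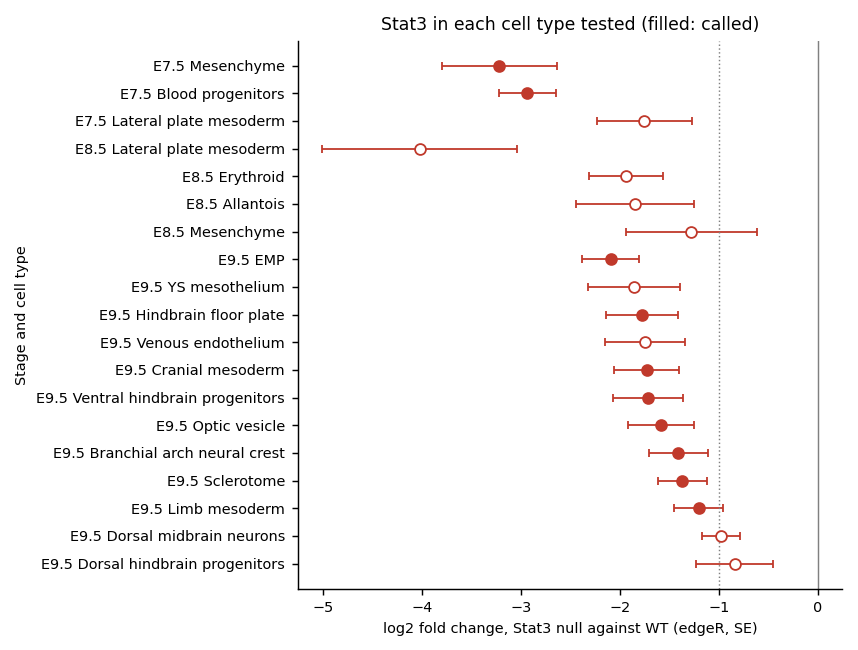
Log2 fold change of *Stat3*, null against WT, with its SE (edgeR) in each of the 19 stage and cell type tests. Filled points were called, the solid line is 0 and the dotted line is -1, and all points lie below 0. The E8.5 Lateral plate mesoderm point rests on 1 null UMI.

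Blood progenitors at E7.5 carried the calls of the other members. *Stat5a* had 1.04 and 0 CPM in null A and B (8 and 0 UMIs) and 19.0 and 15.1 in WT A and B (35 and 37 UMIs), or -4.17 on the log2 scale (SE 0.49, adjusted p = 8.1e-05 by edgeR). *Stat5b* had 10.1 and 14.7 CPM in null and 35.3 and 33.1 in WT (-1.58, SE 0.24, adjusted p = 0.00136). *Stat3* had 3.50 and 5.71 in null and 30.4 and 31.1 in WT. All 3 were separated without overlap, as were 21.5% of genes in that direction, and 3 of the 4 members tested there were called lower, where 0.195% of 8194 genes were. A member can pass the filter on low counts through the WT libraries alone, which favours members that are high in WT. The count of members is therefore no result about the family. Neither *Stat5* difference was called as unlike that in the rest of the library by the interaction test. The edgeR adjusted p was 0.131 for *Stat5a* and at lowest 0.512 for *Stat5b* over its 4 types of E7.5, where 0.127% of tests over all types were called. *Stat6* was not called (3.74 ± 1.63 against 5.51 ± 0.877, -0.83, SE 0.50, adjusted p = 0.996).

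Null B held 18 of the 172 null Blood progenitors, and without null A the 3 calls were lost (adjusted p of 0.111 for *Stat3*, 0.0783 for *Stat5a* and 0.409 for *Stat5b* in the fit over all 16 libraries, in which the lone library is assumed to vary like the other groups). The log2 fold changes were then -2.38 for *Stat3* and -1.18 for *Stat5b*, and that of *Stat5a* (-7.63) is no bound, since null B held 0 of its UMIs. The summed Blood progenitor markers (5 genes) lay between 630 and 736 CPM in null and 707 and 806 in WT, and the 7 Erythroid markers between 1066 and 1738 in null and 1072 and 2207 in WT. Markers of ExE and visceral endoderm summed to 0.816 to 2.46 in null and 11.4 to 29.4 in WT, and the lists for ExE ectoderm, Epiblast, Endothelium, Megakaryocyte, Myeloid and EMP, Cardiomyocytes and Neural crest also lay below WT without overlap. The part of these differences in the result was not tested. The median null cell held more UMIs (49302 and 65170) than the median WT cell (35601 and 43816), and its mitochondrial percent was lower (0.875 to 0.895 against 0.97 to 1.025).

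Erythroid cells at E8.5, which carry embryonic haemoglobin, gave lower values for the same 3 genes, with no call in the standard setting. *Stat5a* had 0.773 and 0.795 CPM in null A and B (19 and 4 UMIs) and 2.96 and 4.53 in WT A and B (56 and 74 UMIs), or -2.23 on the log2 scale (SE 0.36, adjusted p = 0.0808 by edgeR). *Stat5b* had 5.61 and 4.77 in null and 12.4 and 15.2 in WT (-1.38, SE 0.20, adjusted p = 0.0730). In this type 0.0883% of genes were called, and null lay below WT without overlap for 15.7%. The *Stat5a* difference between Erythroid and all other cells of the library was -1.51 on the log2 scale (edgeR adjusted p = 0.575, where 0.0897% of genes were called). *Stat5a* in Erythroid cells was called under 8 other settings, among them DESeq2 and leaving out null B, WT A or WT B. *Stat5b* was called there by DESeq2, with library totals, with no filter, in the fit over all 16 libraries and without any one E8.5 library (-1.68 to -1.24, edgeR adjusted p from 0.00889 to 0.0221). Haematoendothelial markers were higher in the null Erythroid cells (282 to 323 CPM summed over 5 genes) than in WT (202 to 253), as were Myeloid and EMP markers (8.46 to 20.1 against 2.27 to 8.32). Lower sums in null without overlap were found for Neural (1.39 to 3.29 against 5.28 to 14.6), Gut endoderm (1.59 to 2.40 against 5.12 to 9.30), Parietal endoderm (9.54 to 12.3 against 16.3 to 23.2) and Mesenchyme and mesothelium markers (0.994 to 2.20 against 2.37 to 4.10). Their part in the result was not tested.

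In EMP, *Stat5a* overlapped between genotypes. At E8.5 the 1 null library with more than 15 EMP had 10.2 CPM and WT A and B had 9.34 and 10.2. At E9.5 null A and D had 7.87 and 5.03 and WT A to D had 7.46, 16.6, 5.92 and 7.30 (-0.40, SE 0.47, edgeR adjusted p = 0.887). In the same EMP the myeloid and EMP markers summed to 1371 and 1596 CPM in null and 864 to 1324 in WT. Outside blood, *Stat5a* did not pass the filter in any type. *Stat5b* was tested in 4, 9 and 21 types and called in 1, 0 and 0. *Stat2*, *Stat4* and *Stat6* were tested in 3, 3 and 11, in 1, 0 and 2, and in 7, 6 and 6 types, and none was called at any stage. At E8.5 and E9.5 the 5 members other than *Stat3* had 0 calls by edgeR in the standard setting in 19 and 41 tests, with an unadjusted p under 0.05 in 2 and 1.

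**Figure D4:**
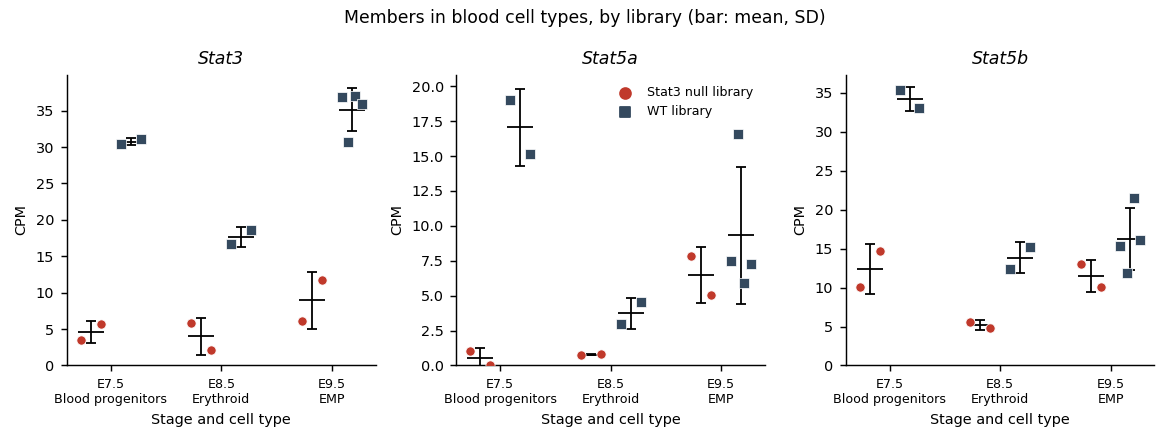
*Stat3*, *Stat5a* and *Stat5b* (panels) in E7.5 Blood progenitors, E8.5 Erythroid and E9.5 EMP, in CPM. Points are libraries (circles null, squares WT) and bars are the mean and SD. In E7.5 Blood progenitors and E8.5 Erythroid the null points lie below all WT points for each gene, and in E9.5 EMP they do so for *Stat3* and overlap WT for the other two.

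WT cells also gave the developmental course of each member. From E7.5 to E8.5 *Stat6* fell in all cells from 12.6 ± 0.179 to 3.43 ± 0.107 CPM (log2 fold change -1.71, SE 0.12, edgeR adjusted p = 0.000597), the 1 member called there, where 17% of all genes were called. Its 2 highest E7.5 types, ExE ectoderm and Visceral endoderm, held 281 and 102 WT cells at E7.5 and 0 and 14 at E8.5, and their part in the fall was not tested. It fell within Lateral plate mesoderm as well, from 10.1 ± 0.771 to 2.03 ± 0.0243 (-2.18, SE 0.46, adjusted p = 0.00199, 8.54% of tests called within types). In Mesenchyme, the other type tested, it was not called (7.65 ± 2.35 to 5.82 ± 0.363, -0.34, SE 0.38, adjusted p = 0.577). From E8.5 to E9.5 no member passed both thresholds in all cells, where 9.63% of genes did. The edgeR adjusted p was under 0.05 with a smaller fold for *Stat2* (log2 fold change 0.54, adjusted p = 0.0172), *Stat3* (-0.54, 0.00367), *Stat5a* (-0.92, 0.00838), *Stat5b* (-0.36, 0.0143) and *Stat6* (-0.47, 0.0134). The share of all genes with an edgeR adjusted p under 0.05 and no fold threshold is not given here. How many members passed it is therefore no result about the family. Blood types made 25.4% of WT UMIs at E8.5 and 5.63% at E9.5, and their part in the differences of the members was not tested. Within types, 3.2% of tests were called there. *Stat5a* rose in Erythroid from 3.74 ± 1.11 to 7.81 ± 1.09 (1.20, SE 0.26, adjusted p = 0.00418), *Stat4* rose in Optic vesicle from 0.772 ± 0.328 to 3.07 ± 0.959 (1.80, SE 0.61, adjusted p = 0.0376) and *Stat5b* rose in Pharyngeal endoderm from 4.05 ± 0.0131 to 11.1 ± 2.70 (1.26, SE 0.40, adjusted p = 0.0455). *Stat6* fell in Branchial arch neural crest from 6.94 ± 1.12 to 2.56 ± 1.37 (-1.65, SE 0.43, adjusted p = 0.00630) and in Optic vesicle from 3.83 ± 1.21 to 1.42 ± 0.672 (-1.56, SE 0.49, adjusted p = 0.0257). All 6 calls within types were lost without E8.5 WT A, with log2 fold changes then from -2.18 to -1.21 for the falls and from 1.04 to 2.26 for the rises. Without E8.5 WT B the calls in Optic vesicle (*Stat4* and *Stat6*) and Pharyngeal endoderm were lost, without E9.5 WT A those of *Stat4* in Optic vesicle and *Stat5b* in Pharyngeal endoderm, and without E9.5 WT B the latter (edgeR adjusted p from 0.0581 to 0.307 where lost).

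A list of 47 further genes of the pathway was tested in the same fits (17 receptors, 4 kinases, the STAT2 partner *Irf9*, 16 feedback and brake genes and 9 targets). The filter was passed in at least 1 type by 36 of them at E7.5, by 40 at E8.5 and by 45 at E9.5. None was called by edgeR at E7.5 in 221 tests (13 with an unadjusted p under 0.05), where 0.184% of all tests were called. At E8.5 2 genes were called lower in 532 tests and none higher (0.0585% called), both in Erythroid. *Csf2rb*, the shared beta chain of the receptors for interleukin 3, interleukin 5 and GM-CSF, had 2.37 ± 1.66 CPM in null and 76.6 ± 0.0737 in WT (-4.70, SE 0.35, adjusted p = 0.0302). *Pim1*, a kinase gene induced by STAT3 and STAT5, had 96.0 ± 5.58 in null and 264.7 ± 7.44 in WT (-1.51, SE 0.16, adjusted p = 0.0370). At E9.5 the same 2 genes were called lower and 1 gene higher in 1039 tests (0.122% called), all in EMP: *Csf2rb* had 3.99 ± 2.09 CPM in null and 34.3 ± 13.7 in WT (-2.95, SE 0.44, edgeR adjusted p = 0.0328), *Pim1* had 53.0 ± 9.19 and 191.5 ± 44.6 (-1.87, SE 0.26, adjusted p = 0.0467), and *Ccnd1*, which encodes cyclin D1, had 123.6 ± 43.3 and 38.7 ± 9.75 (1.69, SE 0.24, adjusted p = 0.0351). In these EMP, where *Stat3* was called too, the median mitochondrial percent (1.73 to 1.795 in null against 1.275 to 1.71 in WT) and the summed myeloid and EMP markers were higher in null, and Parietal endoderm markers were lower (118 to 150 CPM against 154 to 193), all without overlap. Their part in these results was not tested. Over all tests of the list the median log2 fold change was -0.02 at E7.5, -0.04 at E8.5 and -0.01 at E9.5.

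The genes whose WT levels ran most like those of each member were found by Spearman correlation of log2(CPM + 1) over 131 stage and cell type means, among 9497 or 9498 genes, and are a description with no test, since types share libraries, depth and blood content. *Stat3* was most like *Elovl1* (0.62), *Tgfb1* (0.62) and *S100a13* (0.58). *Stat5a* was most like *Smap2* (0.55), *Tmbim1* (0.54) and *Afg3l2* (0.53), and *Stat5b* was most like *Eea1* (0.59), *Rab14* (0.56) and *Minos1* (0.53). *Stat6* was most like *Myh9* (0.64), *Efr3a* (0.64) and *Anxa7* (0.62), *Stat2* was most like *Nedd1* (0.54), *Psap* (0.54) and *Wnk1* (0.54), and *Stat4* was most like *Coro1a* (0.51), *Chmp6* (0.49) and *BC029722* (0.49). Between members the highest value was 0.53, for *Stat5a* and *Stat5b*, followed by 0.49 for *Stat3* and *Stat5a* and 0.44 for *Stat3* and *Stat5b*.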

How the data were processed

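Sorted *Stat3* null (tdTomato-positive) and WT cells of chimeric embryos were sequenced as 10x 3′ libraries. The authors mapped reads with Cell Ranger to a mouse genome with the tdTomato sequence added, and deposited raw UMI counts per gene and cell, without normalization, for cells that passed their limits on UMIs, genes, and mitochondrial and ribosomal percent. The authors also deposited a table of cells with the mitochondrial percent, a doublet score and call, and a mapping score, stage and cell type transferred from an atlas. Cells called doublets (8.12%) and 596 WT-sorted singlets with a tdTomato UMI were left out here. Counts were summed per library and cell type and tested with edgeR 4.0.16 (filterByExpr, TMM, robust quasi-likelihood, R 4.3.3). DESeq2 1.42.0 was an alternative. As in the study, predicted genes and those for haemoglobin, ribosomal proteins and mitochondrial transcripts were not tested, and with some others they numbered 8178. Imprinted genes, which the study also left out, were kept here. Tests were tried on simulated data. Libraries were put in the labelled groups by the stage and sort gate that the table of cells gives, but could not be tied to an embryo pool, so no block was fitted. The members, gene lists and cell types were chosen with earlier results of these data known. Named genes were the members, listed pathway genes called in at least 2 types at one stage or in E8.5 Erythroid cells, and the 3 genes most like each member. *Csf2rb* and *Pim1* meet this rule and *Ccnd1* was named after its values were seen. Cell types named were the highest and lowest in each order, those with a call and a fixed list of blood and extra-embryonic types. Unmatched columns of per-sample values numbered 0. With at least 20682659 UMIs per library, 3 counts correspond to a small fraction of 1 CPM. *Stat5a* over all cells of E7.5 null B (0.145 CPM) rests on such a count of 3 UMIs. Single types can rest on few UMIs, which are given beside some of the values only.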

Additional observations from a re-analysis of the deposited data

Results flagged for a closer look

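Of 27 groups of 4 libraries looked at, 5 held a library far from the other 3, with a gap past Dixon's 95% critical value, where chance alone flags about 1 group in 20. *Stat2* in all cells had 3.42 CPM in E9.5 null library B against 3.98 to 4.05 in the others. *Stat5a* in all cells had 0.784 in E9.5 WT library C against 1.00 to 1.03. *Stat3* had 8.34 in Branchial arch neural crest of E9.5 WT library A against 4.67 to 5.004, 30.8 in EMP of WT library B against 36.0 to 37.0, and 7.08 in Sclerotome of WT library B against 5.01 to 5.20.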

How the results depend on the processing

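No paired analysis was possible because the columns of cells tie a library to a stage and a sort gate but to no embryo pool. *Stat3* was called in 2 types at E7.5, in 1 under DESeq2, in 1 without null-sorted cells lacking a tdTomato UMI (Blood progenitors then had too few cells to be tested), in 0 with more than 50 cells per library (neither type then tested), and in 0 to 1 without one library. At E8.5 it was called in 0 types, but in 1 under DESeq2, library totals in place of TMM, no filter on low counts, without null-sorted cells lacking a tdTomato UMI and in the fit over all 16 libraries (an alternative chosen after seeing the data), and in 1 without any one library. At E9.5 it was called in 8 types, in 3 under DESeq2 and in 2 to 6 without one library. The other members had 2 calls at E7.5, 0 with more than 50 cells or without null-sorted cells lacking a tdTomato UMI, where Blood progenitors were not tested, and 0 to 2 without one library. At E8.5 they had 0 calls, 2 under DESeq2, library totals, no filter and the 16-library fit, 1 without null-sorted cells lacking a tdTomato UMI, and 1 to 2 without one library. *Stat5a* in E8.5 Erythroid was called by DESeq2 (-2.26), library totals (-2.25), no filter (-2.21), null cells with a tdTomato UMI alone (-2.45) and the 16-library fit (-2.22), and lay between -2.37 and -2.04 without one library. Over all cells, 2 member calls became 4 under DESeq2 and the 16-library fit, with *Stat5a* at E7.5 and *Stat3* at E8.5 added. The 7 calls between WT stages became 3 under DESeq2, 11 with library totals, 13 with no fold threshold and 3 to 8 without one library. Thinning kept the leading type in 10 of 18 orders. The cause was not tested. Null against WT fits without one E7.5 or E8.5 library, and all those between WT stages, used the 16-library fit less that library. At E9.5, null against WT fits used that stage alone unless a genotype kept fewer than 2 libraries. The interaction between E8.5 and E9.5 used libraries of these stages, and that of Erythroid against other cells used E8.5 libraries. Values near 0 changed sign in fits without one library: *Stat2* at E9.5 (0.04 without null B, 0.051 without WT C, range -0.037 to 0.051), *Stat4* at E7.5 (-0.24 without null A, -0.17 without WT A, range -0.24 to 0.52) and at E8.5 (-0.57 without null A, -0.30 without WT B, range -0.57 to 1.25), and *Stat6* in E8.5 Erythroid (-0.022 without null A, range -0.022 to 0.99). Keeping cells called doublets shifted a library's *Stat3* by -5.42 to 6.06% of its level, *Stat5a* by -9.33 to 49.2%, *Stat4* by -13.8 to 11.3% and the other members by -7.40 to 6.51%.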

Other observations

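Null-sorted cells in which no tdTomato UMI was counted stayed in the null group, and their *Stat3* level is given here by stage. At E9.5 the 227 such cells outside blood had 5.30 CPM of *Stat3* (32 UMIs), beside 2.04 in 9472 null-sorted cells with a tdTomato UMI and 5.38 in 10951 WT cells. At E8.5 the 438 such cells had 1.54 CPM, beside 1.45 with a tdTomato UMI and 4.13 in WT. At E7.5 the 45 such cells had 0.683 CPM (1 UMI), beside 1.17 with a tdTomato UMI and 5.68 in WT. The 544 WT-sorted E9.5 cells outside blood with a tdTomato UMI, which were left out, had 4.93 CPM (85 UMIs). These are sums over cells of several libraries and were not tested.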
